A study of Mus musculus with 6 samples.

Results

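The genes described here are activity-induced secreted and synaptic effectors, 9 genes that neurons switch on after electrical or synaptic activity and whose products act outside the nucleus. They were chosen by name (Bdnf, Scg2, Vgf, Pcsk1, Nptx2, Nrn1, Arc, Homer1 and Rgs2), and all 9 were found by their Ensembl identifiers among the 54232 genes listed in each library. RNA was sequenced from wildtype cortical neurons of CD1 mice in 6 libraries, with a repeat 1 and a repeat 2 in each of 3 groups. The control libraries carry PDL in their names, the PA libraries IKVAV, and the PA + PS2 libraries IKVAV plus PEDOT-S_OH. PA stands for peptide amphiphile, IKVAV is a laminin-derived peptide sequence, PEDOT is a conducting polymer, and PDL and PS2 are not spelled out in the labels. All 6 libraries, the control included, carry the treatment label peptide amphiphile, and no source used here gives animal age, dose, culture time or any stimulation. Whether the repeats came from separate cultures or animals is not in the labels, so each p-value rests on how far these 6 samples differ among themselves.

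Calcium entering an active neuron through NMDA receptors and L-type channels reaches the nucleus as kinase signals that act on CREB, MEF2 and SRF. Among the first genes to respond are those of transcription factors such as Fos and Nr4a1. CREB and these factors act on effector genes whose products are secreted or placed at synapses. Some effector genes, such as Rgs2, also respond early. Bdnf, Scg2 and Vgf products travel in dense-core vesicles, where convertases such as the product of Pcsk1 cut prohormones into peptides. Nptx2 and Nrn1 products act at the synaptic surface, Arc and Homer1 products in the postsynaptic compartment, and the Rgs2 product shortens Gq signalling.

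Letters of the CREB-type element were searched in the 250 bases before each RefSeq transcription start (GRCm38.p6), because CREB sites are a known feature of several of these promoters. RefSeq windows were matched for 5 of the 9 genes, in 12 windows, of which Bdnf had 7 and Homer1 had 2. Vgf, Nptx2, Nrn1 and Arc had no entry in the set of windows used here, so their promoters were not searched. The short element TGACG, read on both strands, was in at least 1 window of each of the 5 genes. By window it was in 5 of the 12, and in 17.8% of all 32851 windows of the same length. The share of all genes with a match in at least 1 window was not counted, so the count by gene has no share beside it. The full element TGACGTCA was in the Scg2 and Pcsk1 windows and in 1.55% of all windows; each full element also counts as a pair of overlapping short elements. The AP-1 letters TGANTCA were in 1 window, of Bdnf (6.75% of all windows), and the CArG box in none of the 12 (1.47% of all windows). These are letter matches and not measured binding. The stretches that hold the matches are printed 5′ to 3′ on the gene's strand, with the TGACG or CGTCA matches in capitals.
Scg2, chr1:79440076-79440105, minus strand: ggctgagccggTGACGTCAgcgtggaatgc
Pcsk1, chr13:75089769-75089821, plus strand: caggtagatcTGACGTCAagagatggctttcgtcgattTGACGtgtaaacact
Homer1, chr13:93303691-93303756, plus strand: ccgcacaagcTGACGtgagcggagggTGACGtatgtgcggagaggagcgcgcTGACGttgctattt
Bdnf, chr2:109692388-109692417, plus strand: atatgacagctcaCGTCAaggcagcgtgga
Rgs2, chr1:144004202-144004344, minus strand: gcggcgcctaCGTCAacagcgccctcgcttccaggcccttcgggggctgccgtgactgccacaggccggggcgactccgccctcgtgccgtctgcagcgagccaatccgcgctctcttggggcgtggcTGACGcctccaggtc
The full element lies 68 to 61 bases before the RefSeq start in Scg2 and 78 to 71 bases before it in Pcsk1. The GENCODE M21 model of Scg2 starts further upstream, so that the printed Scg2 stretch falls inside its first exon.

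The libraries held 30714311 to 33923681 counts, so 1 CPM (count per 1000000 counts, here with TMM scaling) stands for 30.7 to 33.9 counts. Mitochondrial genes took 1.20% to 1.94% of counts. Between the libraries of a group, chi-square divided by its degrees of freedom was 15.5 to 22.3, more than sampling noise gives. Each library was counted as its own sample, though this value does not show that they came from separate cultures or animals. The Y-linked gene Ddx3y was at 16.8 to 18.7 CPM in the repeat 1 libraries and 36.3 to 39.1 CPM in the repeat 2 libraries, a difference between the repeats that all 3 groups shared. The 8 neuron markers (Map2, Tubb3, Rbfox3, Snap25, Syn1, Slc17a7, Gad1 and Gad2) were detected in all 6 libraries, at a sum of 5168 to 5674 CPM.

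PA + PS2 was compared with the control to ask what the peptide amphiphile together with PS2 changed. Levels of most of these genes were lower in PA + PS2. The log2 fold changes furthest from 0 were those of Nptx2, Pcsk1 and Scg2, at -0.77 ± 0.251, -0.75 ± 0.257 and -0.74 ± 0.138 (SE, 2 libraries a group). Nrn1 and Homer1 lay close to the control, at -0.07 ± 0.144 and -0.16 ± 0.0867. In edgeR's quasi-likelihood test with Benjamini-Hochberg adjustment none of the 9 passed an adjusted p under 0.05, where 0 of all 17299 genes tested (0%) passed, and 6 of the 9 had an unadjusted p under 0.05, as did 1179 of all genes. With the repeat number as a block in the same test Scg2 and Rgs2 passed, both lower, where 0.538% of all genes passed as lower. DESeq2 without the block called Bdnf, Scg2 and Vgf lower, where 0.636% of all genes passed as lower. With the block DESeq2 called Scg2 and Rgs2 lower, where 1.37% of all genes passed as lower, and no longer Bdnf (adjusted p = 0.329) or Vgf (0.384). Both PA + PS2 libraries lay below both control libraries for 7 of the 9 genes, and for 17.1% of all genes tested. In bulk samples such as these, fewer cells of a type and less RNA per cell cannot be told apart.

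**Figure D1:**
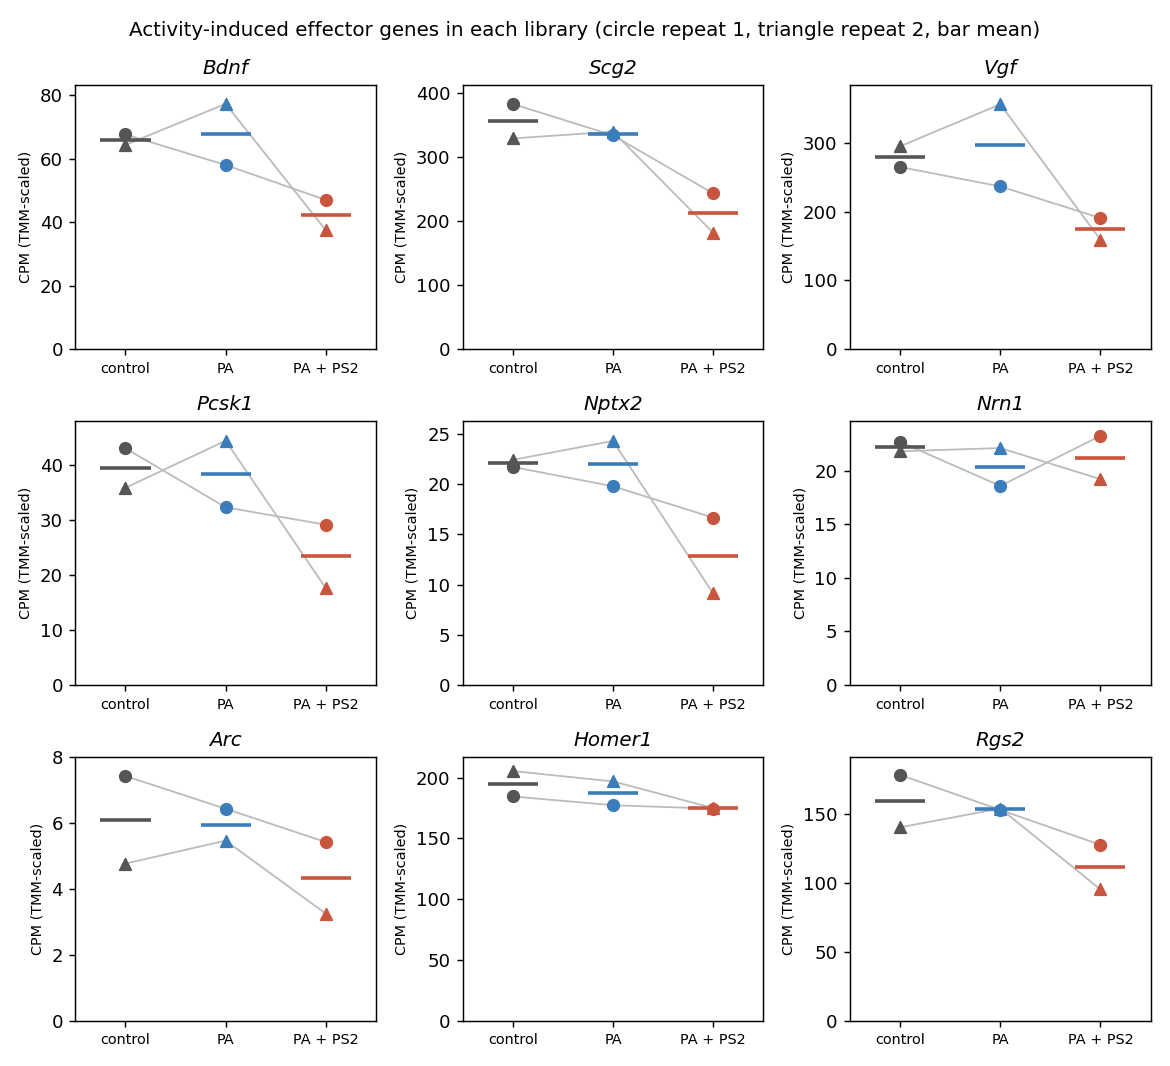
TMM-scaled CPM (y axis, from 0) of the 9 genes in each group (x axis), with a circle for the repeat 1 library, a triangle for the repeat 2 library, a thick bar for the mean of the 2 libraries and grey lines joining the libraries of 1 repeat. In PA + PS2 both libraries lie below both control libraries for 7 of the 9 genes, the exceptions being Nrn1 and Arc.

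Scg2 (GRCm38, chr1:79434669-79440120, minus strand) encodes secretogranin II, a granin that helps to form dense-core vesicles and is the source of secretoneurin. In repeats 1 and 2 it was at 382 and 328 CPM in the control libraries, 333 and 339 CPM in the PA libraries, and 243 and 182 CPM in the PA + PS2 libraries; values of all genes are given in this order of repeats. Both PA + PS2 libraries were below the other 4. The log2 fold change of PA + PS2 against control was -0.74 ± 0.138 (edgeR adjusted p = 0.446), and -0.75 ± 0.0920 with the repeat block (adjusted p = 0.00813). Against PA it was -0.66 ± 0.138 (adjusted p = 0.389), and -0.68 ± 0.0922 with the block (adjusted p = 0.00581). Over all alternatives the adjusted p ran from 6.00e-12 to 0.990 against control and from 1.74e-07 to 1.00 against PA. With the block, the call against control was lost without control 1 (adjusted p = 0.0875), without control 2 (0.460) and without PA + PS2 2 (0.306). The blocked call against PA was lost without PA + PS2 2 only (0.354), among the 6 libraries left out in turn.

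Bdnf (chr2:109674700-109727007, plus strand) encodes brain-derived neurotrophic factor, the ligand of TrkB that supports survival and strengthens synapses. It was at 67.7 and 64.4 CPM in the control libraries, 58.1 and 77.3 CPM in the PA libraries, and 47.0 and 37.5 CPM in the PA + PS2 libraries. The PA + PS2 libraries did not overlap either other group, and the PA libraries lay on either side of the control. The log2 fold change was -0.64 ± 0.158 against control (edgeR adjusted p = 0.511, and 0.142 with the block). Against PA it was -0.68 ± 0.158, with an edgeR adjusted p of 0.411, and of 0.0973 with the block. DESeq2 without the block called it in both comparisons (adjusted p = 0.0350 and 0.0146), and with the block in neither (0.329 and 0.275). In limma-voom with the block it passed against PA (adjusted p = 0.0374) but not against control (0.0616). Over all 27 alternatives the adjusted p ran from 3.19e-07 to 0.990 against control and from 0.000132 to 1.00 against PA. The counts cannot be assigned to a strand or to 1 of the several Bdnf promoters, but the antisense gene Gm45346, which shares 896 exonic bases with it, had at most 7 counts in a library.

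Vgf (chr5:137026392-137033351, plus strand) encodes a secreted neuropeptide precursor that is induced by neurotrophins. It was at 265 and 295 CPM in the control libraries, 237 and 356 CPM in the PA libraries, and 191 and 159 CPM in the PA + PS2 libraries. PA 2 was the highest of the 6 libraries and PA + PS2 2 the lowest, and PA + PS2 overlapped neither group. The log2 fold change was -0.68 ± 0.199 against control (edgeR adjusted p = 0.637, and 0.411 with the block), and -0.76 ± 0.199 against PA (0.468, and 0.351 with the block). DESeq2 without the block called it in both (adjusted p = 0.0349 and 0.00748), and with the block in neither (0.384 and 0.274). In limma-voom with the block it passed against PA (adjusted p = 0.0294) but not against control (0.0553). Over all alternatives the adjusted p ran from 1.73e-06 to 0.990 against control and from 0.000310 to 1.00 against PA.

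Pcsk1 (chr13:75089826-75134861, plus strand) encodes proprotein convertase 1, an enzyme that makes the first cuts in many prohormones inside dense-core vesicles. It was at 43.0 and 35.8 CPM in the control libraries, 32.3 and 44.4 CPM in the PA libraries, and 29.1 and 17.6 CPM in the PA + PS2 libraries. PA 1 and PA + PS2 1 differed by little, and the distance to both groups was larger in repeat 2. The log2 fold change of -0.75 ± 0.257 against control had an edgeR adjusted p of 0.688 (0.464 with the block), and the -0.71 ± 0.259 against PA had 0.580 (0.471 with the block). Neither passed in DESeq2 without the block (adjusted p = 0.143 and 0.163). Over all alternatives the adjusted p ran from 1.31e-06 to 0.990 against control and from 0.000216 to 1.00 against PA.

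Nptx2 (chr5:144545902-144557478, plus strand) encodes neuronal pentraxin 2, also called Narp, which is secreted and gathers AMPA receptors at synapses. It was at 21.7 and 22.4 CPM in the control libraries, 19.8 and 24.3 CPM in the PA libraries, and 16.7 and 9.13 CPM in the PA + PS2 libraries. PA + PS2 2 was the lowest library, while PA + PS2 1 was closer to PA 1 than to PA + PS2 2 in CPM. The log2 ratio to control was -0.38 in repeat 1 and -1.30 in repeat 2, and the fitted log2 fold change of -0.77 ± 0.251 had an edgeR adjusted p of 0.650 (0.281 with the block). Against PA the log2 fold change was also -0.77 ± 0.253 (adjusted p = 0.531, and 0.259 with the block). Without PA + PS2 2 the log2 fold change was -0.41 against control and -0.40 against PA, with neither passing, and over all alternatives the adjusted p ran from 0.00502 to 0.990 against control and from 0.00418 to 1.00 against PA.

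Nrn1 (chr13:36725361-36735131, minus strand) encodes neuritin, a surface protein held by a lipid anchor that promotes neurite growth. It was at 22.7 and 21.8 CPM in the control libraries, 18.6 and 22.1 CPM in the PA libraries, and 23.2 and 19.2 CPM in the PA + PS2 libraries. The 3 groups overlapped, and PA + PS2 1 was the highest library. The log2 fold change was -0.07 ± 0.144 against control (edgeR adjusted p = 0.985, and 0.908 with the block) and 0.06 ± 0.146 against PA, and over all alternatives no adjusted p was under 0.442. Nrn1 shares 501 exonic bases with Fars2 on the other strand, which had up to 401 counts in a library, and without strand information reads there cannot be told apart, so its values are uncertain.

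Arc (chr15:74669083-74672570, minus strand) encodes a cytoskeleton-associated protein that promotes AMPA receptor uptake at active synapses. It was the lowest of the 9, at 7.42 and 4.77 CPM in the control libraries, 6.43 and 5.46 CPM in the PA libraries, and 5.42 and 3.25 CPM in the PA + PS2 libraries. It was lower in PA + PS2 than in control and PA within each repeat, but the PA + PS2 repeat 1 library lay above the control repeat 2 library. The log2 fold change was -0.49 ± 0.314 against control (edgeR adjusted p = 0.868, and 0.386 with the block) and -0.45 ± 0.319 against PA (0.858, and 0.415 with the block). No alternative gave an adjusted p under 0.250.

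Homer1 (chr13:93299635-93405129, plus strand) encodes a postsynaptic scaffold that links metabotropic glutamate receptors to Shank and to calcium stores; activity induces its short form Homer1a, which cannot be told from the long forms in counts per gene. It was at 184 and 205 CPM in the control libraries, 177 and 197 CPM in the PA libraries, and 174 and 175 CPM in the PA + PS2 libraries. The PA + PS2 libraries were nearly equal and below the other 4. The difference was small, with a log2 fold change of -0.16 ± 0.0867 against control (edgeR adjusted p = 0.822, and 0.417 with the block) and -0.10 ± 0.0869 against PA (0.915, and 0.667 with the block). No alternative gave an adjusted p under 0.188.

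Rgs2 (chr1:143999338-144004161, minus strand) encodes a GTPase-activating protein for the Gq alpha subunit, and its transcript is an early response to activity. It was at 178 and 140 CPM in the control libraries, 153 and 154 CPM in the PA libraries, and 128 and 95.2 CPM in the PA + PS2 libraries. Both PA + PS2 libraries were below the other 4, and the log2 ratio to control was alike in the 2 repeats, at -0.48 and -0.56. The fitted log2 fold change was -0.51 ± 0.159 against control (edgeR adjusted p = 0.640), and -0.52 ± 0.0968 with the block (adjusted p = 0.0390). Against PA it was -0.46 ± 0.159 (adjusted p = 0.554), and -0.48 ± 0.0972 with the block (adjusted p = 0.0335). Over all alternatives the adjusted p ran from 5.72e-07 to 0.990 against control and from 0.000416 to 1.00 against PA. The blocked call against control was lost without control 1 (adjusted p = 0.503), control 2 (0.639) or PA + PS2 2 (0.820), and with the filter of at least 50 counts in 2 libraries (0.0770). The blocked call against PA was lost without control 1 (0.105), control 2 (0.127), PA 2 (0.353) or PA + PS2 2 (0.650), with that filter (0.0676), and with only the 2 groups compared (0.101).

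PA + PS2 was then compared with PA to ask what PS2 added. It shares the PA + PS2 libraries with the comparison against control, so the 2 comparisons are not independent. Both PA + PS2 libraries lay below both PA libraries for 8 of the 9 genes, all but Nrn1, and for 18.4% of all genes tested. No member and 0 of 17299 genes (0%) passed in edgeR's test without the block, with 6 of the 9 and 1314 of all genes at an unadjusted p under 0.05. With the block Scg2 and Rgs2 passed as lower, where 1.39% of all genes passed as lower, and DESeq2 without the block called Bdnf, Scg2 and Vgf lower, where 1.01% of all genes passed as lower. With the block DESeq2 called Scg2 and Rgs2 lower, where 1.77% of all genes passed as lower, and neither Bdnf nor Vgf. The distance to PA was larger in repeat 2 than in repeat 1 for 8 of the 9 genes, with log2 ratios of -0.15 and -1.33 for Pcsk1, -0.31 and -1.16 for Vgf, and -0.30 and -1.04 for Bdnf in repeats 1 and 2. Nrn1 was the exception, at 0.32 and -0.20. The share of all genes tested with a larger distance in repeat 2 was not counted.

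**Figure D2:**
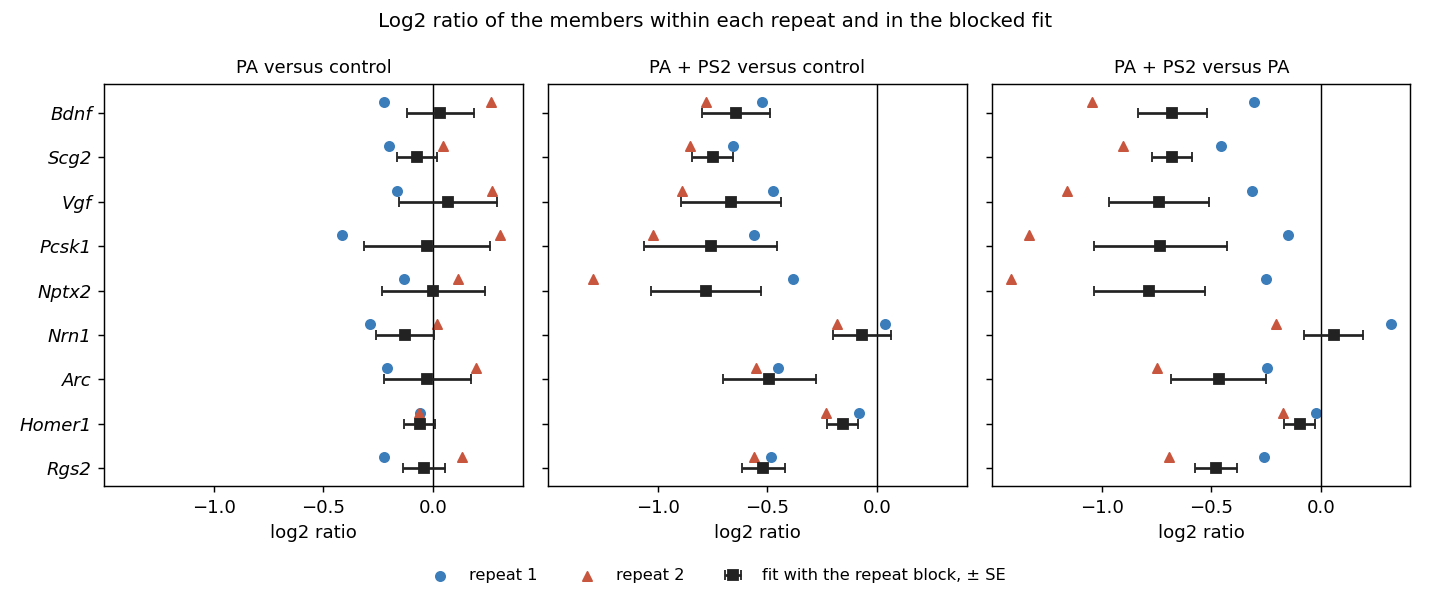
Log2 ratios (x axis) of the 9 genes in the 3 comparisons, within repeat 1 (circles) and repeat 2 (triangles), and the log2 fold change of edgeR with the repeat block (squares, bars ± SE). Against PA the repeat 2 ratios lie further from 0 than the repeat 1 ratios for all genes but Nrn1, down to -1.41 for Nptx2; against control the SE bars of Scg2 and Rgs2 are among the shortest.

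PA was compared with control to ask what the peptide amphiphile changed without PS2. The 9 genes lay close to their control levels, and the 2 groups overlapped for all 9 (over all genes, both PA libraries lay below both control libraries for 9.69%, and above them for 12.1%). The log2 fold changes ran from -0.13 for Nrn1 to 0.08 for Vgf, and none passed in edgeR's test (each adjusted p = 1.00), where 0 of 17299 genes (0%) passed and 138 had an unadjusted p under 0.05, none of them a member. With the block and with DESeq2 none passed either (0% of all genes in both). Within repeat 1 all 9 were lower in PA than in control, from -0.06 for Homer1 to -0.41 for Pcsk1 on the log2 scale. Within repeat 2 the values were above 0 for 8 of the 9, up to 0.31 for Pcsk1, and -0.06 for Homer1. The 2 repeats thus differed in sign for all but Homer1. The shares of all genes tested with these signs were not counted, so these counts only describe the 9 genes.

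Within each repeat, PA + PS2 was the lowest of the 3 groups for 8 of the 9 genes in repeat 1 and for 9 of the 9 in repeat 2. The exception was Nrn1 in repeat 1, where PA was the lowest. The highest group was the control for 8 genes in repeat 1 and PA for 8 genes in repeat 2. The shares of all genes tested with the same orders were not counted, so these counts only describe the 9 genes. The median log2 fold change of the 9 genes was -0.64 for PA + PS2 against control, -0.66 against PA and -0.04 for PA against control. Over all genes tested the medians were 0.01, 0.00 and 0.01. In the same order 9, 8 and 7 of the 9 genes lay below 0, and 48.1%, 48.9% and 47.6% of all genes did.

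Per length, over the 6 libraries, Scg2 was the most abundant of the 9 at a mean of 120 CPM per kb of exon (a level), followed by Vgf at 84.2 and Rgs2 at 39.0. Homer1 was at 15.5 CPM per kb, Nrn1 at 9.45, Bdnf at 9.44, Nptx2 at 7.50, Pcsk1 at 6.01 and Arc at 1.78. Over single libraries the ranges of Scg2 and Vgf overlapped, as did those of Nrn1 and Bdnf, of Bdnf and Nptx2 and of Nptx2 and Pcsk1. Within each of the 6 libraries, though, Scg2 lay above Vgf, Bdnf above Nptx2 and Nptx2 above Pcsk1. Bdnf lay above Nrn1 in the control and PA libraries and below it in the PA + PS2 libraries. The ranges of Vgf and Rgs2, Rgs2 and Homer1, Homer1 and Nrn1, and Pcsk1 and Arc did not overlap. Homer1 and Bdnf have several transcript ends, so dividing by the length of all their exons, 11976 bases for Homer1 and 6217 for Bdnf, understates their level.

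The members varied together over the 6 libraries to different degrees. Pearson's r between a gene's log2 CPM and the mean of the other 8 was 0.99 for Pcsk1, 0.97 for Nptx2, 0.96 for Bdnf and Scg2, 0.94 for Rgs2 and 0.88 for Vgf. It was 0.77 for Arc, 0.59 for Homer1 and 0.44 for Nrn1. The mean of their centred log2 CPM was 0.26 and 0.13 in the control libraries, 0.05 and 0.27 in the PA libraries, and -0.13 and -0.58 in the PA + PS2 libraries. These are descriptions over 6 libraries that share their group and repeat. Among the 10767 other genes at a mean of at least 5 CPM, the 6 with the most similar pattern over the 6 libraries were Tes, 5330434G04Rik, Tyro3, Cartpt, Pcdh9 and Gabra4, with r of 0.993 to 0.996. Gabra4 encodes a GABA-A receptor subunit and was at 87.3 and 78.8 CPM in the control libraries, 80.4 and 88.7 CPM in the PA libraries, and 70.3 and 52.4 CPM in the PA + PS2 libraries. Cartpt encodes a neuropeptide precursor and was at 9.77 and 6.40, 6.36 and 8.87, and 4.30 and 1.56 CPM. In the same search 388 genes had an r of at least 0.9 and 487 an r of at most -0.9.

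The transcription factors of the activity response had log2 fold changes mostly below 0 in PA + PS2. Of 16, 15 lay below 0 against control (median log2 fold change -0.46), and 15 against PA (median -0.43). Without the block none passed in edgeR. With the block Fosl2, an AP-1 factor, passed against control, at 236 and 265 CPM in the PA + PS2 libraries and 317 and 380 CPM in the control libraries (log2 fold change -0.47 ± 0.0867, adjusted p = 0.0361). Fos, the best known AP-1 factor, was at 44.7 and 34.6 CPM in the PA + PS2 libraries, 63.6 and 61.0 CPM in the control libraries, and 59.2 and 71.6 CPM in the PA libraries. Nr4a1, a nuclear receptor, was at 51.8 and 39.7 CPM in the PA + PS2 libraries, 68.7 and 59.4 CPM in the control libraries, and 63.4 and 67.5 CPM in the PA libraries. Against PA with the block Fos (log2 fold change -0.73 ± 0.130, adjusted p = 0.0251), Nr4a1 (-0.53 ± 0.108, adjusted p = 0.0322) and Fosl2 (-0.43 ± 0.0868, adjusted p = 0.0308) passed. DESeq2 without the block called Fos in both comparisons (adjusted p = 0.0140 and 0.00273). Without the PA + PS2 library of repeat 2 edgeR's blocked test called 0 genes in either comparison, so its calls here and in the other lists are lost without that library; DESeq2 was not run with libraries left out.

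Other activity-induced effectors, kinases, phosphatases and signalling proteins, had 13 of 14 genes below 0 against control (median log2 fold change -0.28), and none passed in edgeR with or without the block, or in DESeq2. The 2 most abundant had log2 fold changes of -0.07 and 0.07: Syt4, a vesicle protein, was at 689 and 591 CPM in the PA + PS2 libraries and 656 and 684 CPM in the control libraries, and Plk2, a synaptic kinase, at 238 and 239 and at 231 and 223 CPM. Against PA 12 of the 14 lay below 0 (median -0.28).

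The genes upstream of the response had a median near that of all genes. Of 17 genes for calcium entry, kinases, CREB and its partners, 6 lay below 0 against control (median log2 fold change 0.01), and none passed in any of the 3 comparisons. Camk2b, a kinase subunit, was at 866 and 796 CPM in the PA + PS2 libraries and 785 and 860 CPM in the control libraries. Mef2c, an activity-regulated transcription factor, was at 873 and 810 and at 767 and 763 CPM.

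The medians of the partners of the members in their own pathways were closer to 0, though Cadps2 lay as far from 0 as some members. Of 12 other genes for dense-core vesicles and prohormone processing 10 lay below 0 against control (median log2 fold change -0.08). None passed in edgeR with the block, and DESeq2 without it called Chgb and Cadps2 as lower. Cadps2, a vesicle priming factor, had a log2 fold change of -0.76 ± 0.223 in edgeR without the block. It lies outside the naming rule and was chosen after its value was seen. Chgb, another granin, was at 181 and 172 CPM in the PA + PS2 libraries, 216 and 220 CPM in the control libraries, and 220 and 228 CPM in the PA libraries, and passed against PA with the block (log2 fold change -0.35 ± 0.0685, adjusted p = 0.0283).

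Of 10 genes for other neurotrophins, their receptors and sorting, 8 were abundant enough to test, 6 of them lay below 0 (median -0.10) and none passed. Ntrk2, the receptor of BDNF, was at 658 and 599 CPM in the PA + PS2 libraries and 679 and 714 CPM in the control libraries, and Ntrk3, the receptor of neurotrophin 3, at 328 and 358 and at 264 and 348 CPM. Of 6 pentraxins and AMPA receptor subunits 3 lay below 0 (median -0.05) and none passed; Gria2 was at 667 and 562 and at 733 and 650 CPM, and Gria1 at 334 and 347 and at 363 and 371 CPM. Of 9 Homer partners 6 lay below 0 (median -0.03) and none passed; the scaffold gene Shank1 was at 493 and 338 and at 435 and 415 CPM, and Grm5, a metabotropic glutamate receptor, at 297 and 259 and at 285 and 300 CPM.

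Of 15 other RGS and Gq genes 10 lay below 0 against control (median -0.13), and none passed in edgeR with the block. Rgs5, which is also a mural cell marker, passed against PA with the block, at 3.28 and 4.91 CPM in the PA + PS2 libraries and 10.5 and 9.91 CPM in the PA libraries (log2 fold change -1.33 ± 0.220, adjusted p = 0.0127). DESeq2 without the block called Rgs4 as lower in both comparisons. Its log2 fold change in edgeR without the block was -0.49 ± 0.124 against control and -0.50 ± 0.124 against PA. Rgs4 lies outside the naming rule and was chosen after its value was seen.

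**Figure D3:**
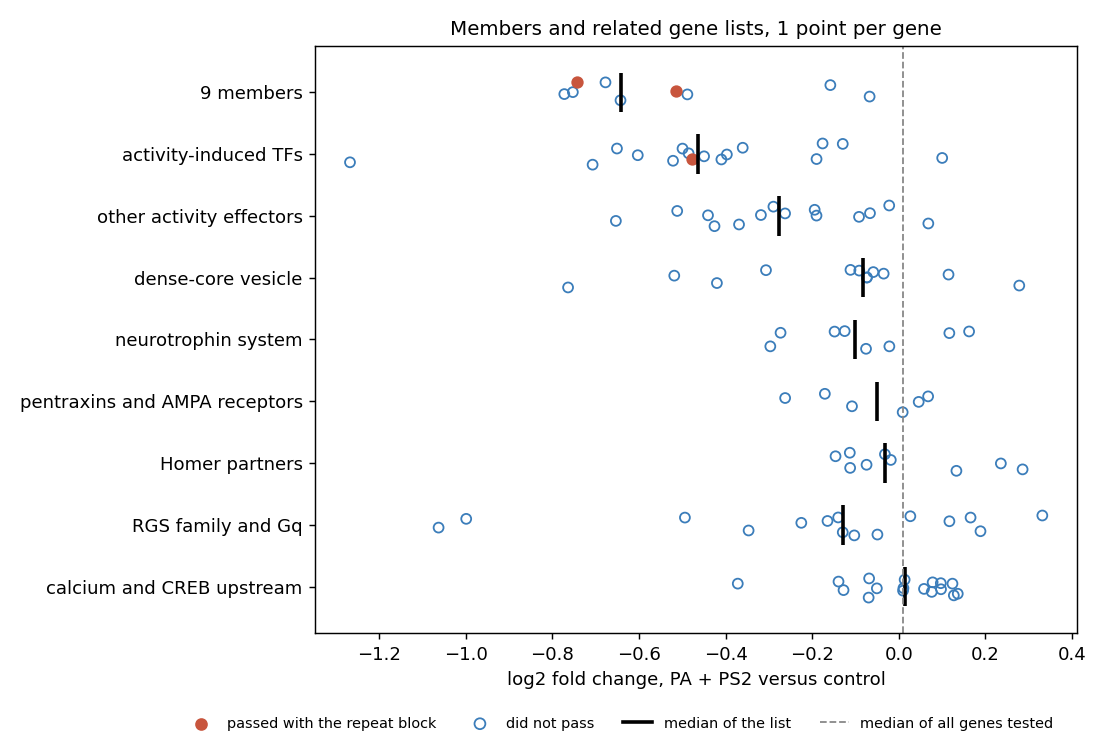
Log2 fold change of PA + PS2 against control in edgeR without the block (x axis) for each tested gene of the 9 members and of 8 related lists (y axis, 1 point a gene, jittered vertically). Filled points passed with the repeat block, black bars are list medians and the dashed line is the median of all genes tested; the medians are -0.64 for the members, -0.46 for the transcription factors and 0.01 for the genes upstream.

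Markers of other cell types also stood at different levels in PA + PS2. The 6 astrocyte markers (Gfap, Aqp4, Aldh1l1, Slc1a3, Aldoc and Gja1) summed to 44.1 and 99.3 CPM in the control libraries, 56.1 and 188 CPM in the PA libraries, and 29.3 and 42.0 CPM in the PA + PS2 libraries. The 5 oligodendrocyte precursor markers summed to 33.4 and 80.5, 23.7 and 122, and 7.91 and 6.30 CPM, and the 8 progenitor and cycling markers to 118 and 224, 138 and 278, and 70.9 and 89.5 CPM. The 3 lists were at their lowest in PA + PS2 within each repeat, and none of their genes was at 0.

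Oligodendrocyte markers went the other way, with a sum over 6 genes of 38.0 and 34.3 CPM in the control libraries, 48.2 and 37.4 CPM in the PA libraries, and 65.3 and 95.1 CPM in the PA + PS2 libraries; Mag and Mobp were at 0 in control 1 and Mobp in PA 2. The 8 mural and fibroblast markers summed to 135 and 154, 170 and 96.3, and 98.7 and 39.4 CPM. The 6 microglia markers summed to 2.96 to 5.08 CPM and the 5 endothelial markers to 4.61 to 10.3 CPM, with 1 or 2 of a list at 0 in some libraries. With the block, against control, 4 of 6 oligodendrocyte markers passed as higher (0.139% of all genes), and 1 of 5 precursor and 3 of 8 progenitor markers passed as lower (0.538% of all genes). Against PA 3 oligodendrocyte markers passed as higher (0.225% of all genes), and 4 astrocyte, 1 precursor, 4 progenitor, 2 mural and 1 neuron marker (Gad1) as lower (1.39% of all genes). The part of these cell types in the levels of the members was not tested. The neuron marker sum was 5310 and 5674 CPM in the control libraries, 5397 and 5539 CPM in the PA libraries, and 5584 and 5168 CPM in the PA + PS2 libraries. Map2 and Tubb3, at means of 2285 and 1734 CPM, made up most of this sum. In PA + PS2, 5 of the 8 neuron markers lay below 0 against control (median log2 fold change -0.04) and 6 against PA (median -0.10).

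**Figure D4:**
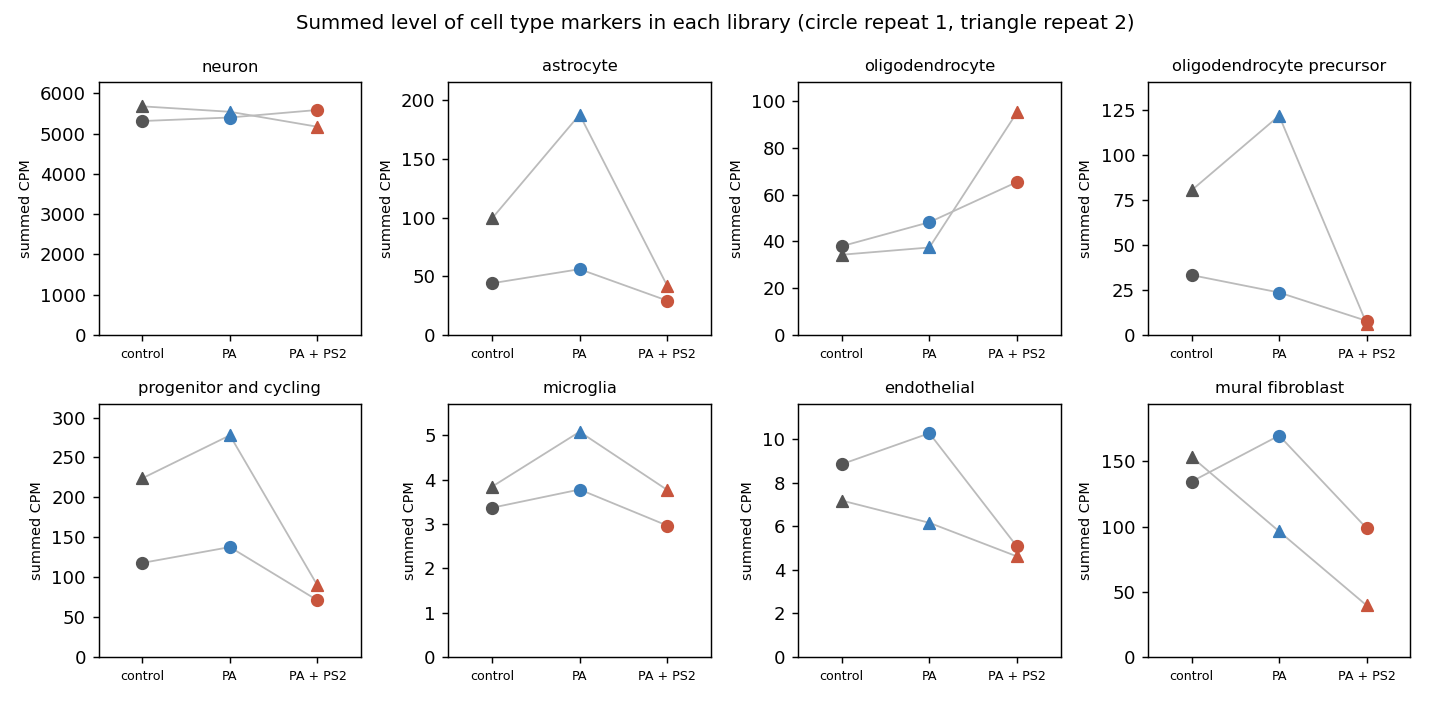
Summed CPM (y axis, from 0) of the markers of 8 cell types in each group (x axis), circles for repeat 1, triangles for repeat 2, grey lines joining the libraries of 1 repeat. Oligodendrocyte precursor markers are at 7.91 and 6.30 CPM in PA + PS2, below the other 4 libraries, and oligodendrocyte markers are highest there. The neuron sum, mostly Map2 and Tubb3, is between 5168 and 5674 CPM.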

How the data were processed

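The deposited files, 1 a library, hold raw counts for each Ensembl gene, per the file headers (all values are whole numbers). The sources used here do not give how the authors trimmed, aligned and counted, nor the annotation release and strand setting. The tools in the submitters' processing notes are DESeq2 1.14.1, HTSeq 2.0.2, STAR 2.7.5 and cutadapt 4.2, and the build there is mm10; their roles are not stated. Per the labels' protocols the RNA came from an RNeasy micro kit and the libraries from a TruSeq Total RNA kit, while the molecule label names polyadenylated RNA. The libraries held 30714311 to 33923681 counts, so 1 CPM is 30.7 to 33.9 counts before TMM scaling.

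Tests were run on these counts in edgeR 4.0.16 (R 4.3.3), in 1 model of all 6 libraries with a mean for each group (quasi-likelihood F test with the robust option, TMM factors, genes kept by filterByExpr on group, 3 residual degrees of freedom), and p-values were adjusted by Benjamini-Hochberg over the 17299 genes kept, which hold all 9 members, with a threshold of 0.05. The SE of a log2 fold change is its size divided by the root of F. edgeR's legacy and newer quasi-likelihood were both seen before the newer was kept as the main test. The self-test on simulated counts was run with edgeR, DESeq2 1.42.0 and limma-voom (limma 3.58.1). Alternatives were other scalings, filters and tools, only the 2 groups compared, the repeat number as a block (2 residual degrees of freedom), combinations of these, the legacy test, and each library left out in turn.

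The difference between the repeats correlated over genes at 0.346 (control with PA), 0.361 (control with PA + PS2) and 0.213 (PA with PA + PS2). The numbers were therefore read as pairing the libraries in the fits with the block, while the main test holds no term for the repeat. This pairing rests on the data, as no label names a litter, batch or day that a number shares. The block lowered edgeR's biological coefficient of variation from 16.7% to 9.57%. The members and lists were chosen with earlier results of these data known. All 9 members are named. From each related list the genes that passed without or with the block in any comparison are named, and otherwise the 2 with the highest mean CPM; of other genes, the 6 of at least 5 CPM whose log2 CPM (prior count 2) correlated best with the members' mean over the 6 libraries. Coordinates and exon lengths are from GENCODE M21 on GRCm38, also called mm10, and promoter windows from RefSeq on GRCm38.p6.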

Additional observations from a re-analysis of the deposited data

How the results depend on the processing

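Without the block no member passed in edgeR or limma-voom in any of the 3 comparisons, under other scalings and filters, the legacy test, only the 2 groups compared or each library left out. The replicate block gave 2 members and 117 genes in all for PA + PS2 against control, 2 and 280 against PA, and 0 and 0 for PA against control. For PA + PS2 against control, DESeq2 called 3 members and 130 genes, the block with DESeq2 2 and 279, with limma-voom 2 and 118, with at least 50 counts in 2 libraries 1 and 42, with RLE size factors 2 and 105, with only the 2 groups 6 and 849, and with the legacy test 2 and 121. For PA + PS2 against PA the same settings gave 3 and 200, 2 and 364, 4 and 288, 1 and 188, 2 and 266, 1 and 153, and 2 and 263. For PA against control the block with DESeq2 called 1 gene and the block with only the 2 groups 8, neither with a member. For PA + PS2 against control, the block with only the 2 groups gave the lowest adjusted p of Scg2, Bdnf, Vgf, Pcsk1 and Rgs2. That fit leaves too few residual degrees of freedom to estimate the spread well, so these lowest values carry little weight. The blocked fits with a library left out leave as few, so low adjusted p and members called in them carry little weight too. Whether calls were lost in them for want of degrees of freedom was not tested.

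With each library left out in turn, the members called ranged from 0 to 6 with the block and the genes called from 0 to 560 against control and 0 to 626 against PA; for PA against control 0 members and 0 to 12 genes were called. Without the block 0 members were called, and 0 to 7 genes against control. Without PA + PS2 2 the block called 0 members and 0 genes in both comparisons with PA + PS2, and without PA + PS2 1 it called 6 members in each. Against control the block called 0 members without control 1 or control 2, and also 0 genes without control 2. Leaving a library out leaves 1 library in its group, which is assumed to vary like the other groups. The cause was not tested.

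The direction held under all 27 alternatives for 16 of the 18 member results with PA + PS2, the exceptions being both of Nrn1 (-0.26 to 0.11 against control and -0.14 to 0.27 against PA with libraries left out). For PA against control the direction of all 9 turned with 1 library or another left out: the log2 fold changes ran from -0.29 to 0.32 for Bdnf, -0.26 to 0.091 for Scg2, -0.28 to 0.37 for Vgf, -0.52 to 0.41 for Pcsk1, -0.33 to 0.30 for Nptx2, -0.35 to 0.070 for Nrn1, -0.33 to 0.32 for Arc, -0.15 to 0.013 for Homer1 and -0.25 to 0.15 for Rgs2. For Nptx2 the value, -0.00074 in the main test, was also above 0 with library totals alone (0.0030), with the block (0.0021) and with the block and the legacy test (0.0044). The legacy test was added after seeing the data. Arc, the least abundant member, had a standard error of 0.314 against control without the block and 0.212 with it, which limits the changes detectable in it.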
